A study of Mus musculus with 7 samples.

Results

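The insulin-like growth factor (IGF) axis was described here through 10 genes: the ligands Igf1 and Igf2, the receptors Igf1r and Igf2r, and the binding proteins Igfbp2 to Igfbp7. They were found by exact match of the gene symbol, which gave all 10 among the 23930 genes of the table. The libraries came from GFP-positive cells sorted from the hind leg muscles of inducible Pax7-GFP mice on a C57BL/6 background, in which tamoxifen switches on GFP in cells that express Pax7, the transcription factor of satellite cells, and leaves it on in their progeny. From 12 to 16 weeks of age, the mice behind 3 libraries (NC1 to NC3) were held in normocapnia, that is, room air, and those behind 4 (HC1 to HC4) in hypercapnia, at 10% CO2 by the study's methods, all with tamoxifen. The methods give cardiotoxin injury 3 days before collection in both groups, although the labels do not mention it and the title inside the table speaks of 40 hours, so the moment after injury rests on the methods. Since the labels do not say whether a library is 1 mouse, p-values measure the spread between these libraries, which may in part be technical.

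IGF1 and IGF2 are secreted hormones that bind IGF1R, a receptor kinase that signals through IRS and SHC adaptors to PI3-kinase, AKT and mTOR. IGF2R, which also carries lysosomal enzymes tagged with mannose 6-phosphate, takes up IGF2 and sends it to lysosomes, whereas the IGF binding proteins hold both ligands outside the cell and set how much is free. In injured muscle, macrophages and other stromal cells are known sources of IGF1, Igf2 and Igfbp5 rise as myoblasts differentiate, and Igfbp7 is abundant in blood vessels. Igf2 is imprinted, that is, read from the paternal copy alone in most tissues, and shares its control region with the noncoding RNA H19.

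Values are RPM, reads scaled to the same total in every library, from a panel that copies a short stretch of each gene, so a gene can be compared between libraries but not with another gene. Library totals ran from 14527445 to 23388710 reads, so that a single read was worth between 0.0428 and 0.0688 RPM. The satellite cell label was checked against 10 markers: Pax7 stood at 268, 8.25 and 4.34 RPM across NC1 to NC3 and at 21.5, 20.1, 79.5 and 59.6 RPM across HC1 to HC4. The sum of 8 macrophage markers was between 11400 and 34400 RPM in normocapnia and between 19400 and 23500 RPM in hypercapnia. The sum of the satellite cell markers was between 507 and 2990 RPM in normocapnia and between 689 and 1250 RPM in hypercapnia. Of these macrophage markers, C1qa alone was at or near 0 in every library, at no more than 0.452 RPM. Xist, the RNA of the inactive X chromosome, was between 445 and 701 RPM in NC1, NC2, HC1 and HC2 and at most 0.125 RPM in NC3, HC3 and HC4, which carried Y-linked RNA instead, and the study used mice of both sexes. In such bulk samples, fewer cells of a type and less RNA per cell cannot be told apart.

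None of the 10 genes differed between hypercapnia and normocapnia beyond the spread between libraries. At the study's thresholds (p below 0.05 before adjustment and a change of over 1.5-fold, here by limma fitted to all genes) 0 members were called, beside 2.57% of all genes tested and 4.75% of the 12504 expressed genes, those averaging 1 RPM or above, to which all 10 members belong. At p below 0.05 alone the count was also 0, beside 4.66% of all genes. On whole reads, edgeR called 1 member with a filter on low genes (6.03% of all genes it tested) and 2 without (4.88%), and DESeq2 called 2 (5.45%). The groups overlapped for each of the 10 members, whereas they did not overlap in 7.72% of the expressed genes. The 10 log2 fold changes ran from -0.72 (Igf1r) to 1.04 (Igfbp4), with 3 members higher and 7 lower in hypercapnia and a median of -0.20, beside a median of 0.16 over the expressed genes. No gene of the whole table passed Benjamini-Hochberg adjustment in limma (1114 had an unadjusted p under 0.05), and DESeq2 passed 29 (0.121%), none of them a member.

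**Figure D1:**
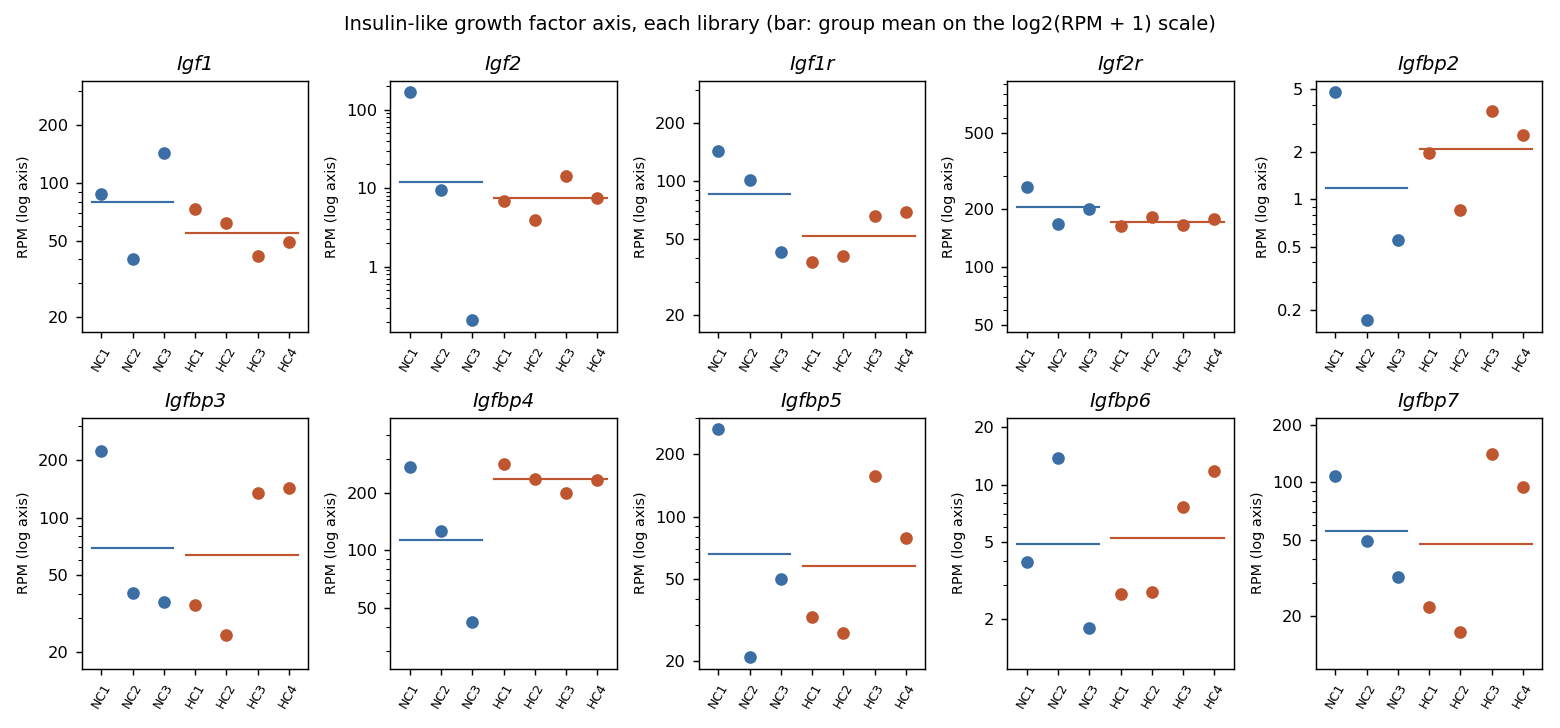
RPM of each IGF axis gene on a log axis in the 3 normocapnia libraries (blue) and the 4 hypercapnia libraries (orange), with bars at the group mean on the log2(RPM + 1) scale. The groups overlap in all 10 panels, and Igf2 spans from 0.207 RPM in NC3 to 165 RPM in NC1.

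Igf1, the growth factor that drives muscle growth and repair, stood at 87.7, 39.9 and 143 RPM across NC1 to NC3 and at 73, 61.8, 41.4 and 49.2 RPM across HC1 to HC4. The highest and the lowest values both belonged to normocapnia, and the hypercapnia libraries lay between them. On the log2(RPM + 1) scale the difference was -0.52 (SE 0.46, 95% confidence interval -1.68 to 0.64, limma adjusted p 0.915), and the exact permutation test, two-sided, gave p = 0.40. As run, its two-sided p counts the one-sided share of the 35 splits for both sides. Its smallest value is therefore 0.0571, and it could not pass 0.05 for any gene. The value rested on NC2 and NC3: without NC2 the difference was -1.01 and passed both thresholds (unadjusted p 0.0296; 5.04% of all genes passed), and without NC3 it was -0.10.

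Igf2, the ligand that rises in differentiating myoblasts, ranged widely, at 165, 9.45 and 0.207 RPM in normocapnia and 6.93, 3.87, 14.2 and 7.52 RPM in hypercapnia. The 4 hypercapnia libraries fell between NC1 and NC3, which bounded the whole range. NC3 held 3 Igf2 reads and NC1 held 3698, a ratio of 799 (95% interval 273 to 3870, exact binomial, for counting error only), and the highest hypercapnia library was 3.67 times the lowest. The SD of log2(RPM + 1) was 3.56 in normocapnia (n = 3) and 0.67 in hypercapnia (n = 4). The mean difference of -0.61 had an SE of 1.68 and an interval of -4.80 to 3.59 (limma adjusted p 1.0; exact permutation p = 0.686), so neither a large fall nor a large rise could be told from 0. Without NC1 the sign turned, to 1.24. On whole reads, DESeq2 (-2.64, adjusted p 0.466) and edgeR without a filter (-2.64, adjusted p 0.725) passed the unadjusted thresholds, while edgeR with a filter did not (-2.60, unadjusted p 0.0764).

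Igf1r, the signaling receptor, was at 143, 102 and 42.8 RPM across NC1 to NC3 and at 38.1, 40.9, 66.0 and 69.3 RPM across HC1 to HC4. NC1 and NC2 lay above every hypercapnia library and NC3 lay among them. The difference was -0.72 (SE 0.48, interval -1.91 to 0.48, limma adjusted p 0.915; exact permutation p = 0.229). Igf1r was the member whose call changed most often: it passed the unadjusted thresholds with median-of-ratios scaling (-0.86; 2.55% of all genes passed), in edgeR with (-0.85) and without a filter (-0.87), in DESeq2 (-0.89) and without NC3 (-1.21), and it failed adjustment in each (adjusted p 0.388 to 0.903). Without NC1 it was -0.35.

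Igf2r, the receptor that clears IGF2, was the steadiest member, at 262, 167 and 202 RPM in normocapnia and 164, 182, 167 and 178 RPM in hypercapnia. Only NC1 and NC3 lay above the hypercapnia range, and NC2 lay within it. Its highest library was 1.60 times its lowest, and the SD of log2(RPM + 1) within groups, 0.21, was larger than that of only 6.57% of expressed genes. The difference of -0.26 (SE 0.15, interval -0.65 to 0.13, limma adjusted p 0.915; exact permutation p = 0.171) was thus bounded to less than a 1.5-fold rise. Without NC1 it was -0.09, and without NC2 it was -0.41 (unadjusted limma p 0.0216, adjusted p 0.539), short of the fold threshold.

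Igfbp4, a binding protein that mostly restrains IGF action, had the largest rise in mean, from 273, 126 and 42.5 RPM across NC1 to NC3 to 281, 236, 199 and 232 RPM across HC1 to HC4. NC2 and NC3 were below every hypercapnia library, but NC1 was above all of them except HC1. The difference was 1.04 (SE 0.62, interval -0.52 to 2.60, limma adjusted p 0.915; exact permutation p = 0.229). It passed the unadjusted thresholds without NC1 (1.67, adjusted p 0.315), as 8.32% of all genes did, and shrank to 0.34 without NC3, so the spread lay in the normocapnia libraries, with an SD of log2(RPM + 1) of 1.33 against 0.20 in hypercapnia.

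Igfbp3, the main carrier of IGFs in blood, was at 223, 40.5 and 36.4 RPM in normocapnia and 35.2, 24.3, 135 and 142 RPM in hypercapnia. Igfbp5, which binds to matrix and is induced in myogenesis, was at 265, 20.9 and 49.7 RPM and at 32.5, 27.4, 156 and 78.3 RPM. Igfbp7, a low-affinity member of the family found in vessels, was at 108, 49.5 and 32.3 RPM and at 22.5, 16.6, 140 and 95.1 RPM. In all 3 genes the high libraries were NC1, HC3 and HC4, and the low libraries came from both groups. The differences were close to 0 with wide intervals: -0.11 (-2.58 to 2.35) for Igfbp3, -0.18 (-2.84 to 2.47) for Igfbp5 and -0.22 (-2.53 to 2.08) for Igfbp7 (limma adjusted p 1.0 for each; exact permutation p = 0.80, 0.857 and 0.857). Without NC1 each turned to above 0 (0.72, 0.82 and 0.25). The exposure accounted for 0.244%, 0.521% and 1.03% of the variance of log2(RPM + 1) in the same order, beside a median of 12.4% over expressed genes.

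Igfbp2 and Igfbp6 were the 2 members that averaged under 10 RPM, and Igfbp6 had at least 26 reads in each library. Igfbp2, a binding protein of fetal tissue and myoblasts, had 4.77, 0.171 and 0.551 RPM across NC1 to NC3 and 1.97, 0.854, 3.62 and 2.57 RPM across HC1 to HC4, where NC2 rests on 4 reads and NC3 on 8. NC1 was again the highest library, and NC2 and NC3 lay below hypercapnia. Its difference was 0.50 (SE 0.65, interval -1.12 to 2.11, limma adjusted p 0.915; exact permutation p = 0.571), and it passed the unadjusted thresholds without NC1 (1.2, adjusted p 0.405). It shrank to 0.05 without NC2 and 0.25 without NC3, and it ran from 0.13 with a pseudocount of 5 RPM to 1.15 with 0.1 RPM. Igfbp6, which prefers IGF2 over IGF1, had 3.97, 13.7 and 1.79 RPM against 2.70, 2.76, 7.68 and 11.7 RPM, with NC2 and HC4 highest. Its difference of 0.09 (SE 0.75, interval -1.79 to 1.97, limma adjusted p 1.0; exact permutation p = 0.971) turned to -0.02 under median-of-ratios scaling and to -0.10 once quantiles were equalized.

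**Figure D2:**
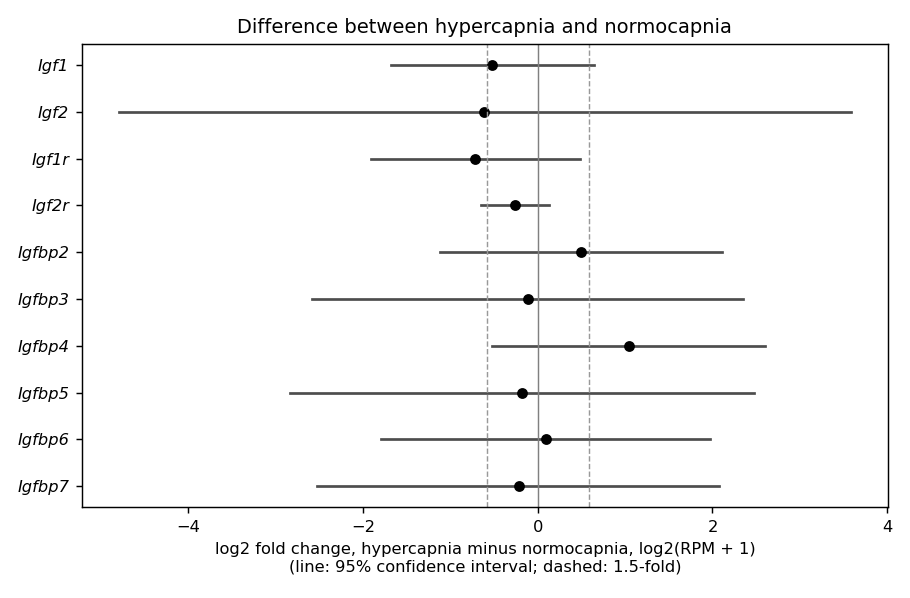
Difference in log2(RPM + 1) between hypercapnia and normocapnia for each IGF axis gene (points) with its 95% confidence interval from limma (lines); dashed lines mark a 1.5-fold change. All 10 intervals cross 0, and they run from the narrow one of Igf2r (-0.65 to 0.13) to that of Igf2 (-4.80 to 3.59).

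The members varied more between libraries of the same group than most genes. The SD of log2(RPM + 1) within groups had a median of 0.96 over the 10 members and of 0.56 over the 12504 expressed genes, and 9 of 10 members lay above the latter. Igf2 exceeded 99.9% of these genes, Igfbp5 96.7%, Igfbp3 95% and Igfbp7 93.1%. NC1 was the highest library for 6 members, as it was for 31.4% of expressed genes. NC3 was the lowest for 3 members, beside 49.0% of those.

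Over the 7 libraries, the members fell into patterns that did not follow the exposure, given here as Pearson's r of log2(RPM + 1) and as a description, since all genes share the same libraries. Igfbp3 moved with Igfbp7 (r = 0.93) and Igfbp5 (0.91), and Igfbp5 with Igfbp2 (0.88) and Igfbp7 (0.80). Igf2 was closest to Igf1r (0.81) and Igfbp3 (0.74). Igf1 stood apart from these, with its highest positive r with Igf2r (0.59) and its lowest with Igfbp6 (-0.84).

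**Figure D3:**
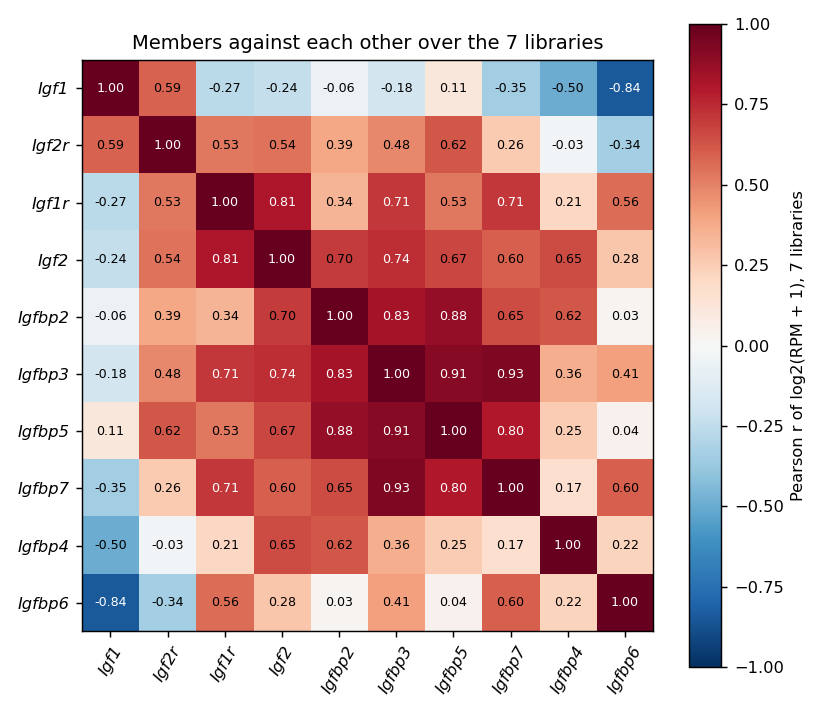
Pearson's r of log2(RPM + 1) between each pair of IGF axis genes over the 7 libraries, from -1 (blue) to 1 (red). Igfbp3, Igfbp5 and Igfbp7 form a block with r between 0.80 and 0.93, whereas r between Igf1 and Igfbp6 is -0.84.

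Since Igfbp3, Igfbp5 and Igfbp7 moved together, the 250 bases before their starts are shown, taken from RefSeq (GRCm38.p6, minus strand, 5′ to 3′). Capitals mark the letters CANNTG, the E-box that myogenic and other basic helix-loop-helix factors can bind, which reads alike on both strands. The windows are chr11:7213924-7214173 for Igfbp3, chr1:72874866-72875115 for Igfbp5 and chr5:77408046-77408295 for Igfbp7.
Igfbp3: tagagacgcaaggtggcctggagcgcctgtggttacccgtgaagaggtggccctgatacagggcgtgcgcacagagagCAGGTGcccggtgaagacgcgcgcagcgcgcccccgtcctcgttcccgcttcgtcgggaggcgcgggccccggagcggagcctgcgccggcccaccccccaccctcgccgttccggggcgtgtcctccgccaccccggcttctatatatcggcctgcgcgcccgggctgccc
Igfbp5: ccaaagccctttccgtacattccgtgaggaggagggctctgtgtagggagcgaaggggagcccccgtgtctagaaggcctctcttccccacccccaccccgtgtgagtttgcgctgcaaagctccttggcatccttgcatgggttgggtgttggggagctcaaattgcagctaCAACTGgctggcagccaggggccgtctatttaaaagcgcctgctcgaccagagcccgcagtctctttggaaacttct
Igfbp7: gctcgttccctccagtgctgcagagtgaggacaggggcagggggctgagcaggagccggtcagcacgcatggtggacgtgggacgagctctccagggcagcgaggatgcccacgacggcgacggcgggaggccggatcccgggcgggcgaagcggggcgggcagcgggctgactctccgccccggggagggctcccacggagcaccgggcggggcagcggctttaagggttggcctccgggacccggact
The match begins 172 bases before the start in Igfbp3 and 77 bases before it in Igfbp5, and Igfbp7 has no match in its window. Of all 32851 RefSeq windows of this length, 66.2% hold at least 1 match, so these letters do not set the genes apart. Of the 14 windows listed for the 10 members, 9 hold the match. Which of the 4 starts listed for Igf2 is used cannot be read from a panel with 1 amplicon per gene.

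Levels of cell type markers moved with the same libraries. The endothelial markers summed to 214, 97.4 and 87.9 RPM across NC1 to NC3 and to 58.6, 45.0, 500.0 and 384 RPM across HC1 to HC4, high in the libraries where Igfbp7 was high (r = 0.96 on the log2 scale, n = 7 libraries). All 6 of these markers had at least 3 reads in every library, and so had the 6 mural markers except Kcnj8 in HC2 (0.1 RPM, where 3 reads are 0.151 RPM). The mural sum had an r of 0.94 with Igfbp3 (1770, 283 and 123 RPM against 202, 154, 708 and 506 RPM). Acta2 made up most of this sum, at 1670 RPM in NC1 and 525 RPM in HC3, whereas the other 5 mural markers were higher in HC3 than in NC1. The satellite cell sum, at 2990, 883 and 507 RPM against 736, 689, 1250 and 994 RPM, moved with Igf2 (r = 0.98), and the macrophage sum moved against it (r = -0.95). Sdc4 gave 781 of the 883 RPM of the satellite cell sum in NC2, where Pax7, Myod1, Myog, Cdh15 and Itga7 were lower than in HC1 and HC2, although the sum was higher. Lyz2 led the macrophage sum, at 8350 to 29100 RPM, and was the only marker of that list highest in NC3. Adgre1 and Cd14 were lowest in NC3 (70.5 and 431 RPM). Markers of other cell types moved with the same genes. Igfbp7 also had an r of 0.91 with the sum of 8 fibro-adipogenic and fibroblast markers (2380, 1960 and 1460 RPM in normocapnia, 1430, 1420, 2710 and 3360 RPM in hypercapnia) and 0.88 with the Schwann cell markers. Igfbp3 had 0.89 with the endothelial and 0.87 with the fibro-adipogenic markers, and Igf2 had 0.92 with the mural and 0.88 with the myofiber markers. Igf1 was not close to the macrophage sum (r = 0.28) or to the satellite cell sum (r = -0.17). Of the 6 endothelial, 6 mural, 10 satellite cell and 8 macrophage markers, limma called 0, 1, 0 and 1 higher and 0 lower in hypercapnia. The part of these cells in the values of the IGF axis genes was not tested.

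**Figure D4:**
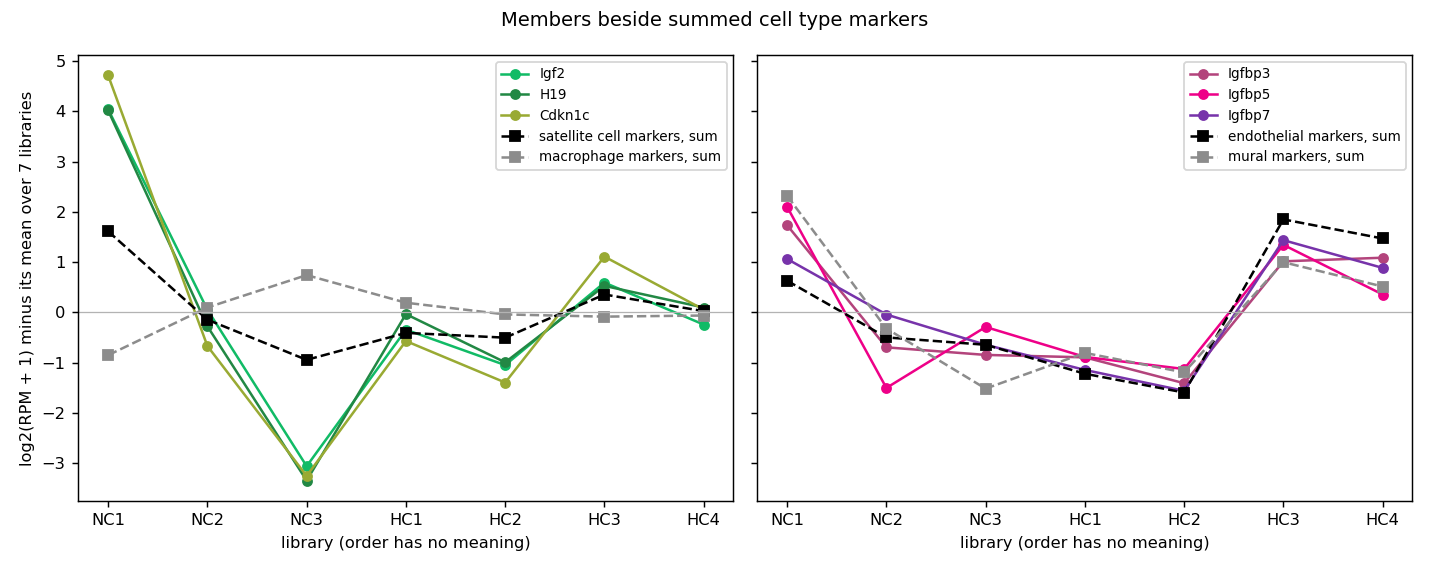
Log2(RPM + 1) in each library minus its mean over the 7 libraries, for Igf2, H19 and Cdkn1c beside the summed satellite cell and macrophage markers (left) and for Igfbp3, Igfbp5 and Igfbp7 beside the summed endothelial and mural markers (right). Igf2, H19 and Cdkn1c peak in NC1 and are lowest in NC3, and the 3 binding proteins are high in NC1, HC3 and HC4.

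The genes most alike to each member were ranked by Pearson's r over the 7 libraries among 8228 other genes averaging 10 RPM or above. For Igf2 these were H19 (r = 0.993), Purb (0.987) and Cdkn1c (0.987). H19, the noncoding RNA next to Igf2, had 696, 34.5 and 3.23 RPM in normocapnia and 41.0, 20.6, 61.0 and 45.0 RPM in hypercapnia. Cdkn1c, an imprinted inhibitor of the cell cycle that myogenic cells induce as they leave it, had 939, 21.5 and 2.75 RPM against 23.1, 12.6, 76.2 and 36.2 RPM. Igfbp5 was closest to Nr2f2 (0.997), a nuclear receptor of mesenchymal and venous cells, to Nfib (0.990) and to Col8a1 (0.989). Igfbp3 was closest to the chemokine-scavenging receptor Ackr3 (0.993), followed by Cuedc1 (0.992) and Rhoj (0.989), a GTPase of endothelial cells, and Igfbp7 to the matrix protease Adamts5 (0.991), to Inpp5a (0.987) and to Adamts9 (0.986). Igfbp4 was closest to the lysosomal enzyme Smpd1 (0.998), to Pdzd11 (0.997) and to Hivep3 (0.993). Igf1r was closest to Zfp318 (0.989), Ext1 (0.986) and Ubxn7 (0.972), Igf2r to Celf1 (0.977), Numa1 (0.961) and Sept9 (0.952), and Igf1 to Cwc15 (0.978), Klhl9 (0.976) and Ythdc2 (0.967). These are the top 3 of 8228 genes over 7 libraries, so values near 1 rank the patterns and carry no test.

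Within libraries alike in Xist, a division made after the values were seen, the difference between the groups did not keep its direction for several members. Among the 4 libraries with Xist, hypercapnia was lower for Igf2 (-2.74 in mean log2(RPM + 1)), Igfbp7 (-1.86), Igfbp3 (-1.67), Igf1r (-1.59), Igfbp5 (-1.31) and Igfbp6 (-1.20). Among the 3 without it, where NC3 is the sole normocapnia library, it was higher for the same genes (3.24, 1.81, 1.90, 0.65, 1.14 and 1.91). Igfbp2 also changed sign (-0.15 with Xist and 1.39 without). Igf1 went the other way (0.18 with Xist and -1.64 without), Igf2r was lower in both (-0.28 and -0.23) and Igfbp4 higher in both (0.47 and 2.31). The libraries of the exposures parted fully and in opposite directions for 5 members, beside 22.1% of expressed genes. The interaction of Xist and exposure passed an adjusted p of 0.05 in limma for 0 members and 3.2% of all genes. With a term for Xist in limma, 0 members were called and the differences ran from -0.69 (Igf1r) to 1.21 (Igfbp4). Within hypercapnia, HC3 and HC4 were above HC1 and HC2 by 6.00 times in mean RPM for Igfbp7, 4.66 for Igfbp3, 3.92 for Igfbp5 and 3.55 for Igfbp6, beside 8.53 for the endothelial and 3.40 for the mural markers, so that sex, cell makeup and library cannot be told apart here.

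**Figure D5:**
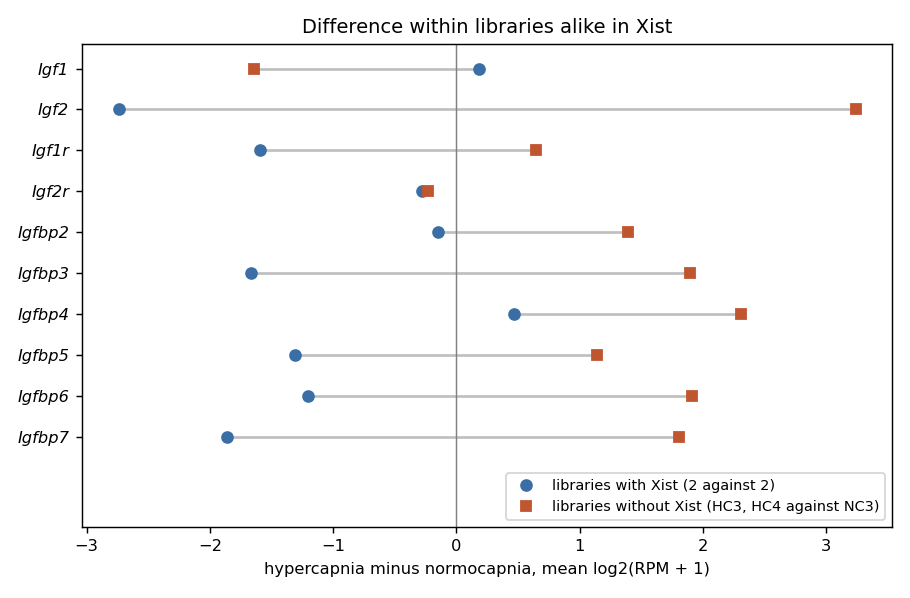
Difference in mean log2(RPM + 1) between hypercapnia and normocapnia among libraries with Xist (circles, HC1 and HC2 against NC1 and NC2) and among libraries without it (squares, HC3 and HC4 against NC3). The points lie on opposite sides of 0 for Igf2 (-2.74 and 3.24) and Igfbp7 (-1.86 and 1.81), and nearly coincide for Igf2r (-0.28 and -0.23).

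Of 45 other genes of the pathway, 43 were in the table, and limma called 2 of them lower and 0 higher in hypercapnia, beside 1.14% and 1.43% of all genes tested. Both belong to the 13 adaptors and inhibitors of the list that were in the table. Gab1, a docking protein that recruits PI3-kinase and SHP2 to receptors, was at 65.3, 102 and 94.8 RPM across NC1 to NC3 and at 49.4, 54.8, 50.3 and 45.1 RPM across HC1 to HC4. Its groups did not overlap (log2 difference -0.77, SE 0.17, limma adjusted p 0.729, exact permutation p = 0.0571, the smallest which that test as run could give). It was called under all 18 alternatives, with differences of -0.65 or further from 0. Irs2, an adaptor that binds IGF1R and the insulin receptor, was at 51.2, 105 and 52.3 RPM against 36.7, 40.1, 41.6 and 33.9 RPM, also without overlap (-0.77, SE 0.28, adjusted p 0.915; exact permutation p = 0.0571). No gene of the list passed adjustment in limma. Irs2 lost its call under 7 of 18 alternatives. Without NC2, its highest library, the difference shrank to -0.44, under the fold threshold. In the other 6, among them the leaving out of any hypercapnia library, it stayed between -0.81 and -0.72 and the unadjusted p rose above 0.05. Gab1 also stands in the study's list of genes called from these libraries, where no entry for Irs2 was found. Both genes stand among the members of terms drawn from that list. These lists are not independent evidence. The groups did not overlap for 5 of the 29 expressed genes of the list (17.2%), beside 7.72% of all expressed genes, and adaptors also went the other way. Grb2, the adaptor that links receptors to RAS, was at 364, 497 and 57.6 RPM in normocapnia and 584, 684, 558 and 535 RPM in hypercapnia (1.42, SE 0.77, adjusted p 0.915; exact permutation p = 0.0571). Shc1, which passes the signal to Grb2, was at 210, 189 and 53.7 RPM against 221, 240, 228 and 266 RPM (0.88, SE 0.50, adjusted p 0.915; exact permutation p = 0.0571). Both lay above normocapnia in all 4 hypercapnia libraries without being called, and for both NC3 was far below NC1 and NC2.

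The other roles held no called gene. Among 11 genes from PI3-kinase to AKT, Akt1, the main AKT of most cells, was at 767, 558 and 182 RPM against 487, 485, 665 and 692 RPM. Of 4 other receptors M6pr, the smaller mannose 6-phosphate receptor, had the smallest p (187, 304 and 37.3 RPM against 312, 252, 141 and 152 RPM), and the insulin receptor Insr differed by 0.01 (SE 0.19). Igf2bp2, which binds Igf2 RNA, led the 6 genes of RNA binding and locus (0.40, SE 0.27, adjusted p 0.915). Of 9 genes that cleave or complex the binding proteins, 5 had a mean under 1 RPM, among them Igfals (0.171 RPM in NC2 and 0 in the other libraries) and Igfbp1, both products of the liver. Pappa, the protease that cleaves IGFBP4, was at 3.84, 1.58 and 0.069 RPM against 0.428, 0.904, 2.0 and 1.69 RPM.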

How the data were processed

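RNA of sorted cells was measured in 3 normocapnia and 4 hypercapnia libraries with the Ion AmpliSeq Transcriptome Mouse panel on an Ion GeneStudio S5 Plus, and groups were taken from the treatment label. The authors deposited RPM, reads per amplicon scaled to the same total in every library. Aligner and genome build: not given in the sources used here. The values are whole multiples of 1 read within 0.05 reads for 100.0% of values, which gave back whole reads and totals of 14527445 to 23388710 reads. The floor of 3 reads is 0.128 to 0.207 RPM, and intervals on reads cover counting error only.

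Differences were tested with limma 3.58.1 (R 4.3.3) on log2(RPM + 1) for the 23930 genes, unfiltered, called at an unadjusted p under 0.05 and a fold above 1.5, with Benjamini-Hochberg adjustment over all genes. Single genes were also tested with an exact permutation test over the 35 splits (SciPy 1.17.1). Alternatives were pseudocounts of 0.1 and 5 RPM, quantile normalization, dropping genes that average under 1 RPM, a prior that follows the mean, median-of-ratios scaling, the replicate number as a block, leaving out each library, and, from whole reads, edgeR 4.0.16 (TMM, which called 802 genes with a filter on low reads) and DESeq2 1.42.0. A term for Xist and its interaction with exposure were added after values were seen. The fits were tested on simulated data. The members and lists were chosen with earlier results of these data known. Named are all members, called genes of the pathway list, otherwise the smallest p of a role (that of PI3-kinase to AKT is not reported here), and the 3 genes most alike to each member at 10 RPM or more. H19, Cdkn1c, Grb2, Shc1, Akt1, Insr, Pappa and Igfbp1 are described beyond this rule, after their values were seen.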

Additional observations from a re-analysis of the deposited data

Results flagged for a closer look

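For 5 members, every hypercapnia library with Xist was below every normocapnia library with Xist, while both hypercapnia libraries without Xist were above NC3, the sole normocapnia library without it. The groups parted in opposite directions, in either order, for 22.1% of the 12504 genes averaging 1 RPM or above. The difference between the effects (with Xist minus without, log2 scale) was -5.98 for Igf2 (SE 2.47), -2.24 for Igf1r (SE 0.30), -3.57 for Igfbp3 (SE 1.48), -3.11 for Igfbp6 (SE 0.99) and -3.67 for Igfbp7 (SE 0.78). As an interaction in limma, fitted over all genes, these gave adjusted p of 0.309, 0.0629, 0.313, 0.216 and 0.114, so none passed 0.05, where 3.20% of all genes did. NC3 enters each of these values alone. It also had the lowest satellite cell sum (507 RPM) and the highest macrophage sum (34400 RPM, of which Lyz2 gave 29100 RPM). Adgre1 and Cd14 were lowest in NC3 (70.5 and 431 RPM), so the macrophage markers did not move together. The part of these sums in the difference was not tested.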

How the results depend on the processing

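Over all genes, 615 were called (343 higher, 272 lower), 1049 in edgeR without a filter, 1304 in DESeq2, 1210 with a term for Xist and 376 to 1990 on leaving out a library. The share of higher genes fell in edgeR with a filter (294 higher, 508 lower) and without (407 and 642). It also fell in DESeq2 (519 and 785) and without NC3 (235 and 381), and it rose without NC1 (1495 and 495). Genes averaging 1 RPM or above had a median difference of 0.16, or 0.04 under median-of-ratios scaling and -0.01 once quantiles were equalized. Of the members, 0 were called, 1 in edgeR with a filter and under median-of-ratios scaling (Igf1r), 2 in edgeR without a filter and in DESeq2 (Igf1r and Igf2) and 0 to 2 on leaving out a library. The partner genes called, 2 at first, were 4 in edgeR without a filter and in DESeq2, 1 to 5 on leaving out a library and 1 with the replicate block. Igf1, Igf1r, Igf2r, Igfbp2 and Igfbp4 kept their direction under all 18 alternatives. Igfbp6 stood at -0.02 under median-of-ratios scaling, -0.10 with equalized quantiles, -0.18 and -0.22 in edgeR with and without a filter, -0.21 in DESeq2, -0.25 with the replicate block and -0.45 to 0.75 on leaving out a library. Igfbp7 stood at 0.07 and 0.05 in edgeR, 0.03 in DESeq2 and -0.73 to 0.27 on leaving out a library. On leaving out a library Igf2 ran from -2.31 to 1.24, Igfbp3 from -0.57 to 0.72 and Igfbp5 from -0.98 to 0.82. The causes were not tested. By the labels, same-numbered libraries share only a number, but in each such pair both had Xist or both lacked it. Their r of deviations was -0.349, 0.503 and -0.0443 for numbers 1 to 3, which cannot show whether they were paired. The replicate block, which leaves out HC4, called 0 members and 598 genes. Depth limits Igfbp2 and, in NC3, Igf2.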

Other observations

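Because H19 and Cdkn1c ranked beside Igf2, a list of 16 imprinted genes was set side by side with it, after the values of those genes had been seen. Of the 15 with a mean of at least 1 RPM, 13 were highest in NC1 (31.4% of all genes at that level were) and 9 lowest in NC3 (49.0% were). Besides H19 and Cdkn1c, whose NC1 values were 11.4 and 12.3 times the next library, these were Dlk1 (6.97 times), Plagl1 (6.50), Zim1 (6.24), Mest (4.08), Grb10 (3.81), Rian (3.47) and Meg3 (3.07), and by less Peg3, Peg10, Mirg and Sgce. Mest, imprinted and active in growing mesenchyme, had 438, 7.18 and 1.03 RPM across NC1 to NC3 and 48.8, 20.4, 107 and 49.1 RPM across HC1 to HC4. Grb10, an imprinted adaptor that restrains signaling from IGF1R and the insulin receptor, had 435, 22.1 and 15.0 RPM against 43.4, 43.2, 114 and 88.8 RPM. Impact and Ndn were the exceptions, with their highest values in NC3 and HC4. None of the 16 was called between hypercapnia and normocapnia. A peak in NC1 was not particular to this list. The satellite cell markers other than Sdc4 and Chrdl2 were also highest there, among them Pax7 (268 RPM, and at most 79.5 RPM in any other library).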
